A study of Mus musculus with 2 samples.

Results

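Tuft cells are rare chemosensory cells of the intestinal epithelium, known for sensing luminal metabolites and parasites and for releasing interleukin 25, which activates innate lymphoid cells and in turn raises tuft and goblet cell numbers. They are specified by the transcription factor Pou2f3 and signal through a taste-receptor-like cascade of G proteins, phospholipase C and the cation channel Trpm5. The genes described here are 6 tuft cell markers: Dclk1, Trpm5, Pou2f3, Avil, Sh2d6 and Il17rb. They were taken by symbol from the deposited counts, and 6 of 6 were found among 22756 gene rows. The study profiled ribosome footprints in the ileum, with 1 library from mice fasted for 48 h and 1 library from fed mice. Mice of both conditions were C57BL/6 wild type and 21 days old. The sources used here do not state how many animals went into each library or whether tissue was pooled. A footprint is the stretch of mRNA that a translating ribosome shields from nuclease, so a footprint count reflects both mRNA abundance and translation, which cannot be told apart without a matched mRNA library. In a lysate of whole tissue, fewer tuft cells and fewer footprints per tuft cell cannot be told apart either.

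Gene-assigned footprints numbered 5434252 in the fasted library and 5558620 in the fed library. Counts were scaled to library size with TMM, which sets the typical gene's ratio near 1, and levels are given as TMM-scaled CPM. Every ratio is fasted over fed with its 95% exact interval, which covers counting error only. With 1 library per condition there was no replicate check, no test between conditions and no p-value. A gene was called lower or higher at a ratio of at least 1.5-fold with an interval excluding 1 and at least 30 counts in sum. By this rule 17.3% of 11333 genes were lower in the fasted library and 17.3% were higher. All 24 pan-epithelial markers examined had counts in both libraries, as did all 6 tuft markers.

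Promoter sequences are shown for 5 of the markers, because Pou2f3 belongs to the POU family, whose members bind the octamer ATGCAAAT, and because 4 of the 5 were lower in the fasted library, as described below. RefSeq windows on GRCm38.p6, the assembly of mm10, were found for 5 of the 6 symbols, and Pou2f3 was not matched. Each line gives the 120 bases before the RefSeq transcription start, 5′ to 3′ on the gene's own strand, and capitals mark the octamer core ATGCAAA or its reverse complement.
Avil, chr10:127000589-127000708, plus strand: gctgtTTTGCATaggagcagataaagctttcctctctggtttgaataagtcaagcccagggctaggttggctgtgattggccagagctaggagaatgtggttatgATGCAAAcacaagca
Dclk1, chr3:55242244-55242363, plus strand: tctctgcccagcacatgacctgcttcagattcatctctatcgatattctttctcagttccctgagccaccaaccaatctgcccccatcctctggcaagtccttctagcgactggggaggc
Trpm5, chr7:143094643-143094762, minus strand: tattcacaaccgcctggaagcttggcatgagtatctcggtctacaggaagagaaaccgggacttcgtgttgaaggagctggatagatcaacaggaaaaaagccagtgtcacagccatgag
Sh2d6, chr6:72520037-72520156, minus strand: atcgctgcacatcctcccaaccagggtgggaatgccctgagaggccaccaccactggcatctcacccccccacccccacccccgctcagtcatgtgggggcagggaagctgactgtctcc
Il17rb, chr14:30008897-30009016, minus strand: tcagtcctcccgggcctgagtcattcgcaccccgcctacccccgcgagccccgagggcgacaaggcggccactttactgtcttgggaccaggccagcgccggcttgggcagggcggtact
The Avil window held 2 matches to the octamer core, the reverse complement starting at position -115 and the forward core starting at position -15, counted from the base before the start as -1. Neither extended to the full octamer. In the 250 bases before each start, the core on either strand was met in 4.12% of 32851 RefSeq promoter windows and the full octamer, which contains the core, in 1.60%. The other markers had no core match within 250 bases, including Dclk1 at both of its RefSeq starts, of which the one at the start of the annotated gene is shown. The Sh2d6 start lies inside the GENCODE gene. These matches are letters in a window and say nothing of binding.

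Of the 6 tuft markers, 4 were lower in the fasted library (Dclk1, Trpm5, Avil and Sh2d6), 0 were higher, Il17rb was neither and Pou2f3 had too few counts for a call. Of the 6, 5 reached the minimum of 30 counts; without a minimum the calls were again 4 lower and 0 higher, beside 13.8% of all 15676 detected genes lower and 13.7% higher. Summed over the 6 genes there were 278 footprints in the fasted library and 721 in the fed library, which is 57.2 and 116 TMM-scaled CPM. The summed level was thus 2.03-fold lower in the fasted library (interval 1.76 to 2.34). With plain CPM, where only total gene counts set the scale, the same 4 were lower and 0 higher, beside 31.2% of the 11333 genes lower and 8.86% higher, and every log2 ratio shifted by -0.32, that of the median gene included. At a 2-fold threshold 2 of the 6 (Dclk1 and Sh2d6) were lower and 0 higher, beside 9.13% of the 11333 genes lower and 8.25% higher. Scaled to pan-epithelial genes, 4 were again lower and 0 higher, beside 20.9% and 14.2% of all genes. The markers were chosen with earlier results of these data known, so the shares of all genes serve for description only.

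**Figure D1:**
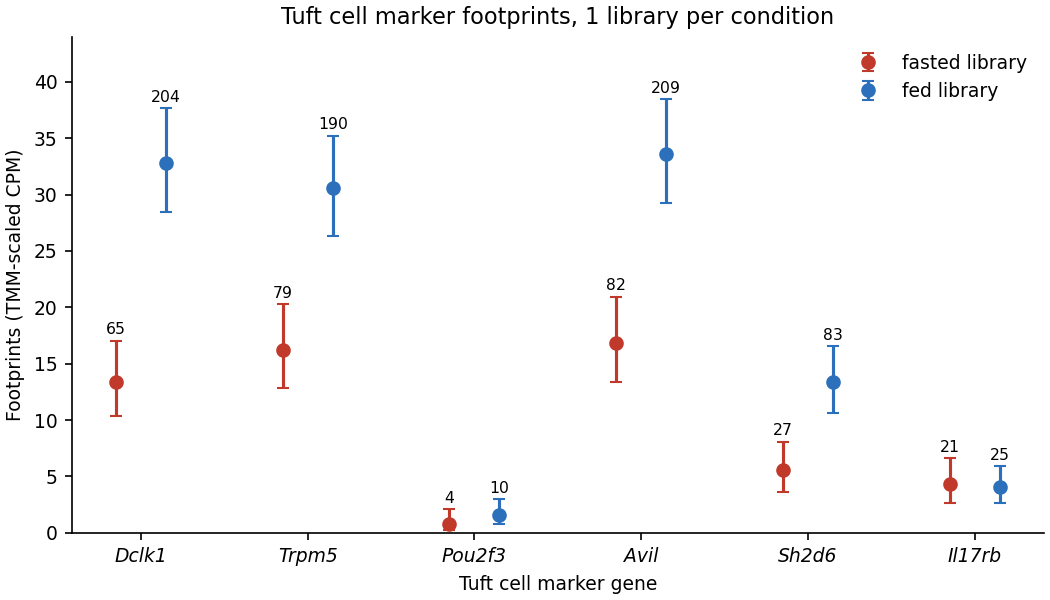
Footprint level of each tuft marker in TMM-scaled CPM (y axis) in the fasted library (red, left of each pair) and the fed library (blue, right). Points are single libraries, bars are 95% exact Poisson intervals (counting error only) and numbers are raw counts. The intervals are apart for Dclk1, Trpm5, Avil and Sh2d6 and overlap for Pou2f3 and Il17rb.

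Pou2f3 (ENSMUSG00000032015, chromosome 9, 43123939 to 43210369, minus strand, mm10) encodes the transcription factor without which tuft cells do not form in mice. It had 4 counts in the fasted library and 10 in the fed library, or 0.823 and 1.61 TMM-scaled CPM. The log2 ratio was -0.97 (interval -3.09 to 0.83). That interval includes 0, so the 14 counts do not resolve the direction for Pou2f3. Only 11.8% of the genes detected in the fasted library and 19.2% of those detected in the fed library had fewer counts.

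Trpm5 (ENSMUSG00000009246, chromosome 7, 143069153 to 143094642, minus strand) encodes the calcium-activated cation channel at the end of the taste cascade. It had 79 counts in the fasted library and 190 in the fed library, or 16.3 and 30.6 TMM-scaled CPM. The fasted library was 1.88-fold lower, a log2 ratio of -0.91 (interval -1.31 to -0.52). Among the 4 markers called lower its ratio was nearest to 1, though the 4 intervals overlapped, and 10.6% of the 11333 genes had a ratio below it. Its exons overlap those of Tssc4 on the opposite strand over 220 bases, but no 28-base stretch of its coding sequence occurred in a transcript of another gene. Tssc4 had 70 counts in the fasted library and 78 in the fed library.

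Avil (ENSMUSG00000025432, chromosome 10, 127000709 to 127020994, plus strand) encodes advillin, an actin-bundling protein of the villin family that is found in tuft cells and sensory neurons. It had the most counts of the 6, with 82 in the fasted library and 209 in the fed library, or 16.9 and 33.6 TMM-scaled CPM. The fasted level was 1.99-fold lower, with a log2 ratio of -0.99 and an interval from -1.38 to -0.62. Villin itself (Vil1), the abundant brush border relative, named here for its shared sequence, had 27446 counts in the fasted library and 22303 in the fed library, the opposite order. The coding sequences share little at read length: 0.206% of the 28-base stretches of Avil occur in Vil1. Another 5.84% lie in Tsfm, the gene that overlaps it on the opposite strand, which had 69 counts in the fasted library and 140 in the fed library.

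Dclk1 (ENSMUSG00000027797, chromosome 3, 55242364 to 55539068, plus strand) encodes a microtubule-associated kinase that is the most used marker of mouse tuft cells and is also made in neurons. It had 65 counts in the fasted library and 204 in the fed library, or 13.4 and 32.8 TMM-scaled CPM. The fasted library was 2.45-fold lower, a log2 ratio of -1.29 (interval -1.72 to -0.89), and 5.21% of the 11333 genes had a lower ratio. The annotation gives Dclk1 11 coding transcripts, and counts per symbol do not separate them. Of 11 enteric neuron markers 10 were measured, 7 were higher in the fasted library and 0 lower, beside 17.3% of all genes each way. The sum of the 11 was 143 TMM-scaled CPM in the fasted library and 83.3 in the fed library. With plain CPM 3 of them were higher and 0 lower, beside 8.86% of all genes higher and 31.2% lower. The part of neurons in the Dclk1 and Avil counts was not tested.

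Sh2d6 (ENSMUSG00000052631, chromosome 6, 72513641 to 72521707, minus strand) encodes an adaptor protein with an SH2 domain, used as a tuft cell marker in single-cell surveys of mouse gut. It had 27 counts in the fasted library and 83 in the fed library, or 5.56 and 13.4 TMM-scaled CPM. The fasted library was 2.40-fold lower, a log2 ratio of -1.26 (interval -1.95 to -0.62). No 28-base stretch of its coding sequence occurred in another gene's transcripts and no annotated gene overlapped it.

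Il17rb (ENSMUSG00000015966, chromosome 14, 29996135 to 30008896, minus strand) encodes the receptor chain that binds interleukin 25 and is found in tuft cells and in group 2 innate lymphoid cells. It had 21 counts in the fasted library and 25 in the fed library, or 4.32 and 4.02 TMM-scaled CPM. The log2 ratio was 0.10 (interval -0.81 to 1.0), and -0.22 with plain CPM (interval -1.13 to 0.68), and both intervals include 0, so no direction was resolved. Set against the other 5 markers summed, its fasted/fed ratio was 2.27 times theirs (interval 1.19 to 4.31), an interval that excludes 1. Each of the other 5 markers, set against the rest in the same way, had an interval that included 1. Il17rb thus made up 7.55% of the 278 marker footprints in the fasted library and 3.47% of the 721 in the fed library. Of its 28-base stretches, 7.96% lie in Actr8, a gene overlapping it on the opposite strand with 84 counts in the fasted library and 119 in the fed library.

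**Figure D2:**
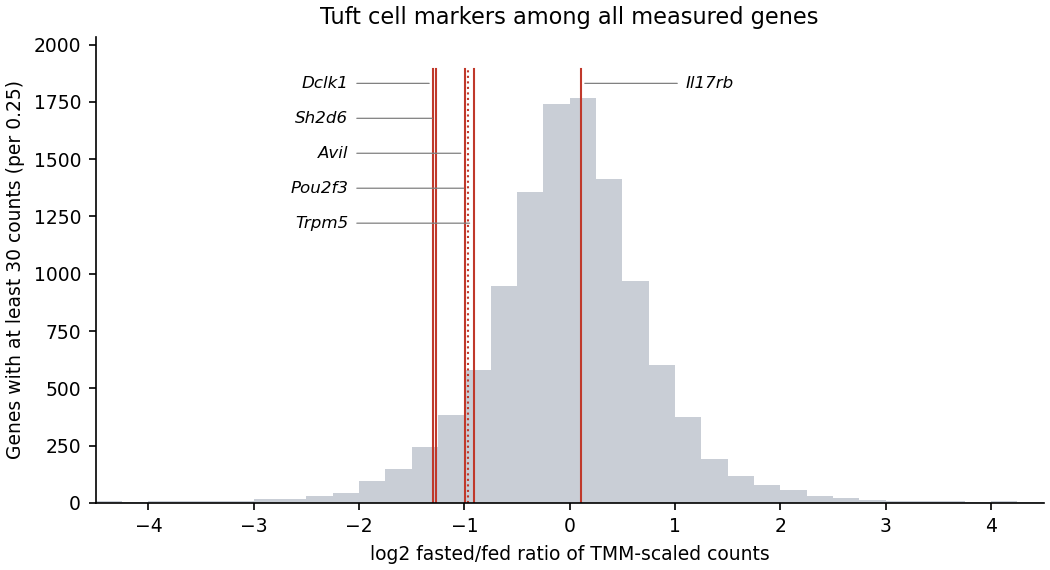
Number of genes (y axis) by log2 fasted/fed ratio of TMM-scaled counts (x axis, 0.25 per bar) for the 11333 genes with at least 30 counts. Red lines mark the 6 tuft markers, dotted for Pou2f3, which had 14 counts in sum: 5 of them lie between -1.29 and -0.91, and Il17rb lies at 0.10.

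Levels of different genes were compared per kilobase of the longest annotated coding sequence, which ranged from 1.07 kb for Sh2d6 to 3.47 kb for Trpm5. In the fasted library the order of the level was Avil (6.87 TMM-scaled CPM per kb), Dclk1 (5.90), Sh2d6 (5.19), Trpm5 (4.68), Il17rb (2.89) and Pou2f3 (0.637). In the fed library Dclk1 came first at 14.5 TMM-scaled CPM per kb, ahead of Avil (13.7), Sh2d6 (12.5), Trpm5 (8.80), Il17rb (2.69) and Pou2f3 (1.24). In both libraries the counting intervals of Avil, Dclk1 and Sh2d6 overlapped, so their order is not resolved. Trpm5 could be placed below Dclk1 and Avil in the fed library, where its interval (7.59 to 10.1) ended under theirs, but not in the fasted library. Il17rb and Pou2f3, the receptor and the transcription factor, had the lowest values in both, but in the fasted library the interval of Il17rb (1.79 to 4.41) overlapped those of Trpm5 and Sh2d6, and in the fed library it overlapped that of Pou2f3. The coding sequences had 51.5% (Il17rb) to 56.9% (Sh2d6) G and C, against a median of 52.9% over 11110 measured genes with an annotated coding sequence. The 6 genes lie on 6 different chromosomes.

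The wider tuft cell program was followed in 5 lists of 52 other genes present in the files. Of these, 37 reached 30 counts in sum, a minimum that a gene can reach through a single library. Without a minimum 23 of the 52 were lower in the fasted library, beside 13.8% of all 15676 detected genes. The results that follow keep the minimum. The calls were 22 lower in the fasted library, 2 higher (Il17ra and Espn) and 13 neither. Of all 11333 genes 17.3% were lower and 17.3% higher. The lists were chosen with earlier results of these data known, so these shares, here and for each list below, serve for description only. The median log2 ratio of the 37 was -0.73, against 0.0028 over all 11333 genes. With plain CPM 26 of the 37 were lower and 0 higher, beside 31.2% of all genes lower and 8.86% higher. The medians were then -1.05 for the 37 and -0.32 for all genes.

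Of 12 genes of the taste-type cascade 7 were measured. Among these 6 were lower in the fasted library and 0 higher, beside 17.3% of all genes each way. Plcb2, Gnat3, Sucnr1 and Ffar3 reached the minimum through their fed counts alone, and Rgs13 reached it only in sum, with 31 counts. Plcb2, the phospholipase C that taste receptors activate, is also known from leukocytes. It had 10 counts in the fasted library and 73 in the fed library (log2 ratio -2.51, interval -3.63 to -1.55). Gnat3, gustducin, the taste G protein alpha subunit, had 10 in the fasted library and 38 in the fed library (-1.57, -2.74 to -0.54). The metabolite receptors, which stand at the head of the cascade, were lower too. Sucnr1, the succinate receptor, had 6 counts in the fasted library and 42 in the fed library (-2.45, -3.98 to -1.21). Ffar3, a receptor for short-chain fatty acids that enteroendocrine cells also carry, had 3 in the fasted library and 32 in the fed library (-3.06, -5.41 to -1.38). Rgs13, a regulator of G protein signalling also found in B cells and mast cells, had 5 in the fasted library and 26 in the fed library (-2.02, -3.76 to -0.62). Among the broadly expressed inositol trisphosphate receptors, which release the calcium that opens Trpm5, Itpr3 was lower (-0.73, -0.87 to -0.60) and Itpr2 was neither (-0.20). Chat, which makes acetylcholine, had 8 counts in the fasted library and 11 in the fed library. The taste subunits were hardly seen, Tas1r1 being at 0 in both libraries, Tas1r3 and Gng13 at 0 in the fasted library and 1 in the fed library, and Gnb3 at 2 in the fasted library and 0 in the fed library. The floor set for a count of 0 was 3 counts, a one-sided limit below the upper end of the two-sided exact interval used for the other levels. It equals 0.617 TMM-scaled CPM in the fasted library and 0.483 in the fed library.

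Genes listed for roles in transcription gave few counts, as Pou2f3 did. Of 7, 4 were measured, 1 was lower and 3 were neither, beside 17.3% of all genes lower. Spib, an Ets factor of tuft cells, M cells and B cells, was the lower one, with 34 counts in the fasted library and 89 in the fed library (log2 ratio -1.03, interval -1.65 to -0.45). Runx1 had a log2 ratio of -0.57 (-1.43 to 0.25), Gm684, listed by RefSeq as Colca2, -0.08 (-1.08 to 0.89), and 1810046K07Rik 0.46 (-0.35 to 1.27). Gfi1b, a zinc finger repressor used as a tuft cell marker, had 3 counts in the fasted library and 7 in the fed library. The homeobox genes had 3 counts in the fasted library and 8 in the fed library for Hmx2, and 6 and 13 in the same order for Hmx3.

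Enzymes that make eicosanoids, lipid mediators that tuft cells release, gave 3 lower and 0 higher calls among 6 measured genes. Of all genes 17.3% were called each way. On the leukotriene branch, Alox5, 5-lipoxygenase, also known from leukocytes, had 35 counts in the fasted library and 94 in the fed library (log2 ratio -1.07, interval -1.67 to -0.50). Its activating protein Alox5ap, also known from leukocytes, had 27 in the fasted library and 77 in the fed library (-1.16, -1.85 to -0.51). Ltc4s, leukotriene C4 synthase, had -0.61 (-1.42 to 0.16). Pla2g4a, the cytosolic phospholipase that frees arachidonic acid for both branches and is also known from leukocytes, was lower (-0.70, -0.97 to -0.43). On the prostaglandin branch, Ptgs1, cyclooxygenase 1, which stromal cells also make, had 452 counts in the fasted library and 437 in the fed library (0.40, 0.21 to 0.60), under the fold threshold. Hpgds, prostaglandin D synthase, had 12 in the fasted library and 18 in the fed library (-0.23, -1.42 to 0.90).

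In the type 2 immune circuit around tuft cells, 5 of 8 genes were measured. Among these 2 were lower in the fasted library and 1 was higher, beside 17.3% of all genes each way. Il25, the tuft cell cytokine, had 0 counts in the fasted library and 1 in the fed library, Il4 had 0 in both, and Il13 had 1 in the fasted library and 2 in the fed library. The 2 genes called lower were Il13ra1 and Il1rl1. Il13ra1, a chain of the interleukin 13 receptor also known from leukocytes, had 239 counts in the fasted library and 679 in the fed library (log2 ratio -1.15, interval -1.37 to -0.94). Il4ra, its partner chain, had 0.40 (0.26 to 0.55) and the downstream factor Stat6 had 0.39 (0.23 to 0.55), both under the fold threshold. Il17ra, the chain that pairs with Il17rb, was higher (0.61, 0.28 to 0.95), but not with plain CPM (0.29). Il1rl1, the interleukin 33 receptor of group 2 innate lymphoid cells and mast cells, had 3 counts in the fasted library and 100 in the fed library (-4.70, -7.01 to -3.11). That was the lowest ratio among the genes of the 5 lists with at least 30 counts.

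Of 19 further tuft cell markers 15 were measured. Among these 10 were lower in the fasted library, 1 was higher and 4 were neither, beside 17.3% of all genes each way. The lower ones included Sh2d7, an adaptor related to Sh2d6, with 12 counts in the fasted library and 47 in the fed library (log2 ratio -1.61, interval -2.66 to -0.68). Lrmp, a membrane protein of the endoplasmic reticulum also found in lymphocytes, had 23 in the fasted library and 91 in the fed library (-1.63, -2.36 to -0.96). Siglecf, a sialic acid receptor shared with eosinophils, had 28 in the fasted library and 96 in the fed library (-1.42, -2.08 to -0.80). Cd24a, which crypt cells and leukocytes also carry, was lower as well (-0.76, -1.06 to -0.46). Espn, espin, an actin bundler of microvilli that other epithelial cells make, was higher (0.79, 0.63 to 0.94), although it did not reach the fold threshold with plain CPM (0.47).

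**Figure D3:**
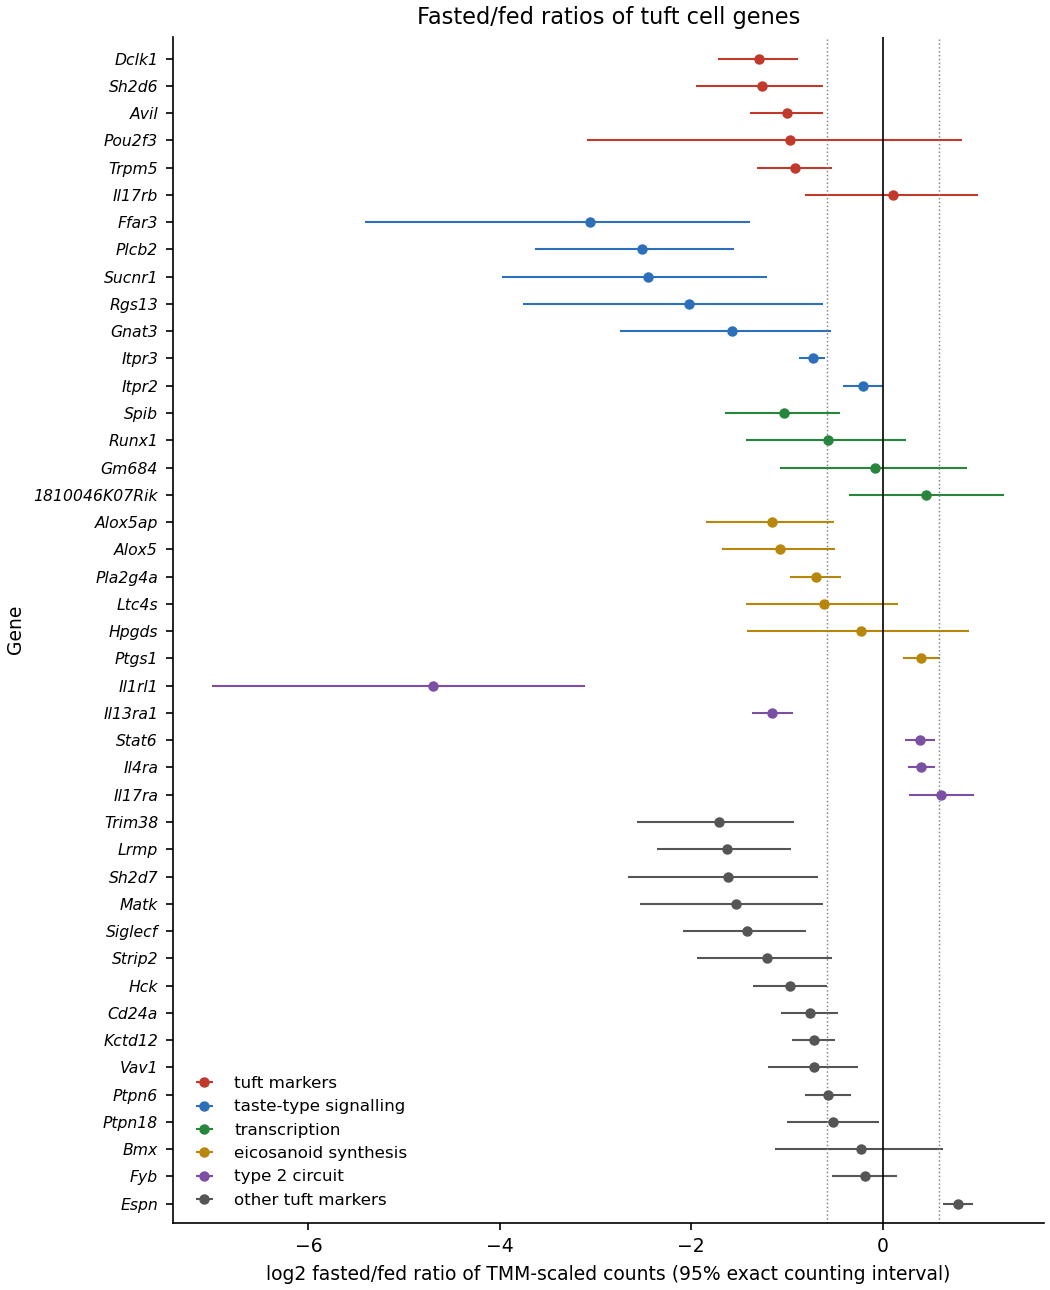
Log2 fasted/fed ratio of TMM-scaled counts (x axis) with 95% exact counting intervals for the 6 tuft markers and the 37 other tuft genes with at least 30 counts, coloured by list. Dotted lines mark the 1.5-fold thresholds. Of the 37 other genes 22 were called lower, and Il17ra and Espn were called higher, beside 17.3% of all 11333 genes each way.

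Many of these genes are also expressed by leukocytes, whose markers were lower in the fasted library too. Of 10 leukocyte markers 6 were lower and 0 higher, beside 17.3% of all genes each way. Their log2 ratios ran from -1.40 to 0.066, and their sum was 490 TMM-scaled CPM in the fasted library and 687 in the fed library. With plain CPM 9 were lower, where 31.2% of all genes were. No leukocyte marker was at 0. Of 9 mast cell markers 3 were measured, 2 were lower and 0 higher, beside 17.3% of all genes each way. Their sum was 107.6 TMM-scaled CPM in the fasted library and 107.0 in the fed library. Most of it was Kit, with 488 of 523 counts in the fasted library and 515 of 665 in the fed library. Ms4a2 was at 0 in both libraries, Cpa3 and Fcer1a were at 0 in the fasted library and Mcpt4 in the fed library. Of 8 markers of group 2 innate lymphoid cells and T helper 2 cells 5 were measured, and 1 was lower, which was Il1rl1, beside 17.3% of all genes. With plain CPM 3 of the 5 were lower, beside 31.2% of all genes. Their sum was 17.5 TMM-scaled CPM in the fasted library and 34.9 in the fed library, and Il5 was at 0 in the fasted library. Il1rl1 alone gave 3 of the 85 summed counts in the fasted library and 100 of the 217 in the fed library. The part of immune cells in the ratios of the shared genes was not tested. A list of 31 genes also known from leukocytes was then left out, a split made after the values were seen. Of the 21 other tuft genes that remained 11 were measured, 7 were lower and 1 was higher, beside 17.3% of all genes each way. The 7 were Gnat3, Itpr3, Sucnr1, Ffar3, Kctd12, Strip2 and Sh2d7. Itpr3 is broadly expressed, and whether leukocytes add to the counts of the 7 was not tested.

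Tuft markers were also lower relative to the epithelium as a whole. The 24 pan-epithelial markers summed to 28097 TMM-scaled CPM in the fasted library and 24726 in the fed library, with 3 lower, 3 higher and 18 neither (7 lower and 0 higher with plain CPM). The fasted/fed ratio of the 6 tuft markers summed was 0.434 times that of these genes (interval 0.377 to 0.499). It was 0.145 times that of 6 enterocyte markers (0.125 to 0.166), of which 5 were higher in the fasted library and 0 lower, with a sum of 67396 TMM-scaled CPM in the fasted library and 19742 in the fed library. The ratio was 0.286 times that of 7 enteroendocrine markers (0.246 to 0.333), 0.515 times that of 4 Paneth markers (0.447 to 0.593) and 0.629 times that of 6 goblet markers (0.546 to 0.723). These intervals hold under any scaling of the libraries, since scaling cancels. Against 4 crypt stem cell markers the ratio was 1.44 times theirs (1.24 to 1.67). Single genes weigh heavily in these sums, and the gene with the most counts is named for 3 of them. In the stem cell sum it was Olfm4, with 1854 of 2324 counts in the fasted library and 7932 of 8660 in the fed library. In the goblet sum it was Fcgbp, with 103959 of 188973 in the fasted library and 119498 of 308286 in the fed library. In the Paneth sum it was Itln1, with 20829 of 41636 in the fasted library and 29014 of 55627 in the fed library. The median log2 ratio was -0.63 for the 4 stem cell markers and -0.95 for the 6 tuft markers, with 0.5 counts added to each count. Outside the epithelium, 5 of 5 smooth muscle markers were lower and fibroblast markers split into 4 lower and 2 higher of 6, with 0 higher under plain CPM. With TMM the summed log2 ratio was -0.91 for smooth muscle and -1.39 for fibroblast markers, beside -1.02 for the 6 tuft markers. Of all genes 17.3% were lower and 17.3% higher with TMM, and 31.2% and 8.86% with plain CPM. The part of a changed mix of tissue layers was not tested.

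**Figure D4:**
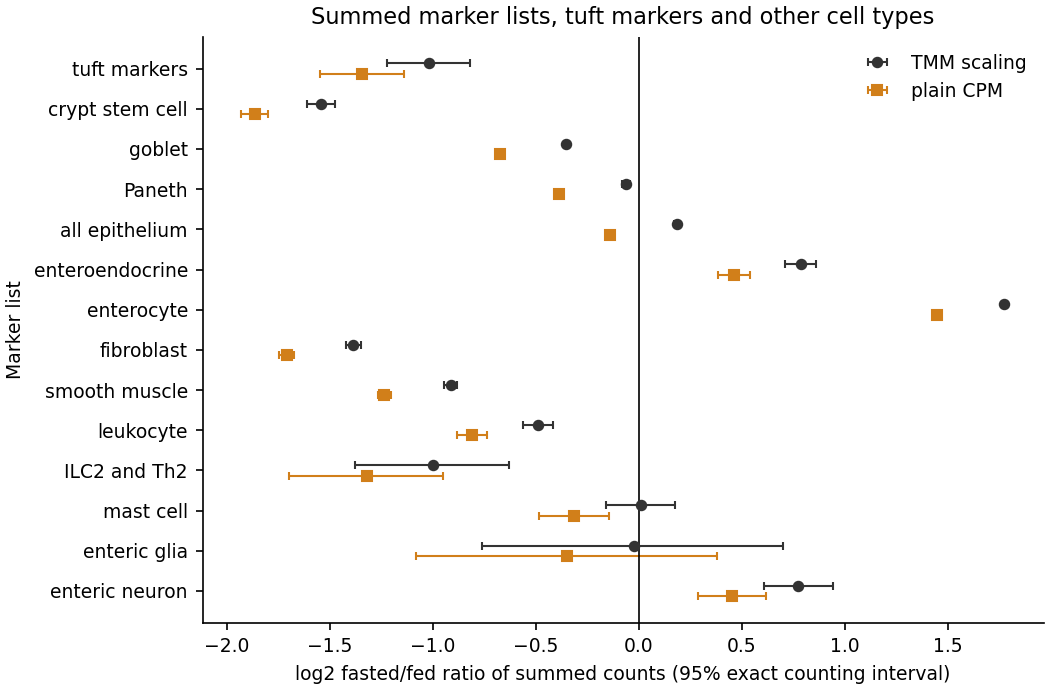
Log2 fasted/fed ratio of the summed counts of each marker list (x axis) with 95% exact counting intervals, scaled with TMM (black circles) and as plain CPM (orange squares). Tuft markers lie at -1.02 with TMM and -1.34 with plain CPM, enteroendocrine markers at 0.79 and 0.46, and all epithelium at 0.18 and -0.14.

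With 2 libraries, likeness between genes rests on a single ratio. The genes with at least 100 counts nearest to the summed tuft ratio of -1.02 were Krt7, Steap3 and Vps45, each at a log2 ratio of -1.02. Of 8385 such genes, 486 (5.80%) lay within the interval of the summed ratio, so many other genes shared it.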

How the data were processed

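For 1 fasted and 1 fed library, whole-number counts of reads per gene symbol were deposited, with no normalization. Ribosome-protected fragments were purified through sucrose, rRNA-depleted and PCR-amplified, per the labels' protocols. Per the submitters' processing notes, the build was mm10 and the tools included HTSeq, STAR, Bowtie 1.1.2 and cutadapt, with no roles stated. The sources used here do not state the annotation, strand setting or footprint length filter. Reads of genes that overlap on opposite strands may therefore be mixed.

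Rows naming no gene were left out of library sizes. They held, of all counted reads in the fasted and the fed file, 21.0% and 13.4% in no feature, 39.9% and 41.4% aligned to several places, and 0.196% and 0.209% ambiguous. Gene rows given as NA were read as 0. Symbols were matched to GENCODE vM21 (GRCm38) for 21943 of 22756 rows. TMM factors came from edgeR 4.0.16 in R 4.3.3, used for scaling only, and the median-ratio alternative from DESeq2 1.42.0. Ratio intervals are Clopper-Pearson intervals on the split of a gene's counts, level intervals are exact Poisson, and ratios of ratios have exact conditional intervals (scipy 1.17.1). Reads carry no molecular identifiers, so intervals and the floor of 3 counts cover counting error only. The interval code was run on simulated counts with known ratios, and no value from that run is used. All 6 markers are described in full, with the other listed tuft genes of at least 30 counts or at 0 in both libraries eligible to be named. Other listed genes under 30 counts, Vil1, Olfm4, Fcgbp, Itln1 and Kit were named after their values were seen. Alternatives were other scalings, minimum counts, a 2-fold threshold and wider intervals. The markers and gene lists were chosen with earlier results of these data known.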

Additional observations from a re-analysis of the deposited data

How the results depend on the processing

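The count of 4 tuft markers lower and 0 higher was the same under plain CPM, median-ratio, upper-quartile, reduced TMM and pan-epithelial scaling, with no minimum or a minimum of 100 counts, and with wider intervals. The shares of all genes called lower and higher were 17.3% and 17.3% with TMM, and 31.2% and 8.86% with plain CPM. They were 20.9% and 14.2% with pan-epithelial scaling, and 13.8% and 13.7% with no minimum. For the other settings in this list these shares were not computed. A minimum of 200 counts, which Sh2d6 does not reach, left 3 lower. At a 2-fold threshold 2 were lower, beside 9.13% of the 11333 genes, since Trpm5 and Avil (log2 ratios -0.91 and -0.99) fell short of it. The summed log2 ratio of -1.02 was -1.34 with plain CPM, which shifts every gene by -0.32; under the other scalings it lay between -1.12 and -1.02. Relative to pan-epithelial genes it was -1.20. Of the other tuft genes 22 of 37 measured were lower, beside 17.3% of the 11333 genes. At a minimum of 100 counts 13 of 22 measured were lower, and at a minimum of 200 counts 6 of 14. The share over all genes was not computed at these minimums. Without genes also known from leukocytes, an alternative chosen after the data were seen, 7 of 11 measured were lower. Each of these alternatives tests fewer genes. Depth limits Pou2f3 and Il17rb most, with 14 and 46 counts in sum. No replicate could be left out, and no paired analysis was possible because each condition has 1 library.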
